A study of Homo sapiens with 28 samples.

Results

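Genes of UDP-sugar conjugation, 6 in all, were followed through xenograft tumours of human renal cell carcinoma: the transferases UGT1A6, UGT2B4, UGT2B7, UGT3A1 and UGT8, and UGDH, the dehydrogenase that makes their commonest co-substrate. They were taken by name, with earlier results of these data known, from a series in which 19775 genes have a probe set of their own. Every probe set annotated to 1 of the members alone was used. This gave 8 probe sets for 5 of the genes: 1 each for UGT1A6, UGT2B4 and UGDH, 2 for UGT8 and 3 for UGT3A1. The annotation used here names UGT2B7, a renal and hepatic enzyme of opioid and steroid glucuronidation, on 0 probe sets, so UGT2B7 was not analysed. Of the 8 probe sets, 6 passed the filter on dim values and were tested among 26924 probe sets; the other two, both of UGT3A1, stayed below it.

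UDP-glucuronosyltransferases are membrane enzymes of the endoplasmic reticulum that join a sugar, mostly glucuronic acid, to bile acids, steroids, bilirubin and drugs, which makes them water-soluble for excretion into bile or urine. Liver and gut carry most of this activity, and the proximal tubule of the kidney, from which clear cell renal carcinoma arises, also expresses several of the enzymes. Sorafenib itself is a known substrate of UGT1A9, a product of the same locus as UGT1A6.

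The series compared tumours labelled resistant to a VEGF receptor inhibitor with untreated tumours. The cell lines 786-O and A498, both established clear cell lines without working VHL, had been injected under the skin of female athymic nude/beige mice aged 6 to 8 weeks, with 10000000 cells per injection. Once a tumour measured 12 mm across, its mouse was dosed by gavage on 6 of 7 days with sorafenib (80 mg/kg) or sunitinib (53.6 mg/kg), and RNA of 28 frozen tumours was hybridised to 1-colour Affymetrix arrays. The groups were 786-O untreated (n = 5) and resistant (n = 5) in the sorafenib arm, 786-O untreated (n = 5) and resistant (n = 4) in the sunitinib arm, and A498 untreated (n = 4) and resistant (n = 5) in a sorafenib arm. The labels give no size for the untreated tumours, so size and treatment cannot be told apart. They also do not state 1 mouse per tumour. The p-values set each difference against the spread between tumours within groups, pooled over all groups. This spread may be partly technical. In tumour RNA, fewer cells of a kind and less RNA per cell cannot be told apart either.

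Signals are linear array units with the same trimmed mean on each array. Differences are resistant minus untreated on the log2(signal + 16) scale, ± standard error, from 1 limma fit over all arrays, and a probe set is called where its p, adjusted by Benjamini-Hochberg over the 26924 tested, is under 0.05. Folds are taken from that scale, which understates the change of dim probe sets. The filter limit is a signal of 89.4, the median of all values. The levels of different probe sets are not compared with each other, because each probe set responds differently to the same amount of RNA. Of 13 renal markers on the array 13 passed the filter, with PAX8, the renal lineage factor, at group means of 2327 to 4730; ANPEP, EPCAM and LRP2 were under the limit in all 786-O groups (at most 26.1, 51.6 and 58.8). The summed signal of fibroblast and pericyte markers (10 genes on the array, 8 past the filter) lay between 2872 and 4860 in the 786-O sorafenib-resistant tumours and between 7548 and 10959 in their untreated group, while that of hepatocyte markers (9 genes, 5 past the filter), most of it SERPINA1, ran from 7287 to 11687 and from 4847 to 6862. The probe sets are for human genes and the hosts were mice, so such sums are not amounts of host cells. The 3-prime minus 5-prime difference of ACTB, a sign of RNA degradation, was highest in 786-O untreated replicate 5 (1.03) and resistant replicate 4 (0.67) of the sorafenib arm.

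Promoter sequence is shown for UGT1A6, UGT3A1 and UGDH, the members called lower in 786-O with sorafenib that were matched in the RefSeq table. Each sequence is the 250 bases before a RefSeq start site on GRCh38.p14, written 5′ to 3′ along the gene. Capitals mark matches, on either strand, to the core of the site of HNF1, a hepatic and renal factor of UGT genes (GTTAAT, or ATTAAC on the other strand), to the xenobiotic response core bound by AHR (GCGTG), or to the antioxidant response core bound by NRF2 (TGACNNNGC). The full palindromic HNF1 site, 2 such cores facing each other around 1 base, was searched as well and matched none of the members' promoters.
UGT1A6 start site 1, chr2:233691452-233691701, + strand: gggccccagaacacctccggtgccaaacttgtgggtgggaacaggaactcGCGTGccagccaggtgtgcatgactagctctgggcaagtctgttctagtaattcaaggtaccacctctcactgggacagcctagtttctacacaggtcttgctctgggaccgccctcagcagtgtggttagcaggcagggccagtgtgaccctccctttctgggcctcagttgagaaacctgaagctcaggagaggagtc
UGT1A6 start site 2, chr2:233692640-233692889, + strand: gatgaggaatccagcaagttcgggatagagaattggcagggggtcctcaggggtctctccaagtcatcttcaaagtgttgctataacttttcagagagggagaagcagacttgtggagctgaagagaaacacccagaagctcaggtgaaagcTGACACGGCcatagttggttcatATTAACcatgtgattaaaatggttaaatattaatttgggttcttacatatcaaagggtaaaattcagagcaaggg
UGT3A1 start site 1, chr5:36001023-36001272, - strand: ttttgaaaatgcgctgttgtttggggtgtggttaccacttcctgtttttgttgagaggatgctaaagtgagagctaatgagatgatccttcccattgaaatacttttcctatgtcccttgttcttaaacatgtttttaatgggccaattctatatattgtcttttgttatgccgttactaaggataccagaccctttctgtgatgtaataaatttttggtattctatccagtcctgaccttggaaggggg
UGT3A1 start site 2, chr5:35991391-35991640, - strand: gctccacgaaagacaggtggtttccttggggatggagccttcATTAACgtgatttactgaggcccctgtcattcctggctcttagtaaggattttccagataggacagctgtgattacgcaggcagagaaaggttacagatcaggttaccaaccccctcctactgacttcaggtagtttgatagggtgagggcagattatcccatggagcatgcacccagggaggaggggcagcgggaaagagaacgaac
UGDH start site 1, chr4:39527440-39527689, - strand: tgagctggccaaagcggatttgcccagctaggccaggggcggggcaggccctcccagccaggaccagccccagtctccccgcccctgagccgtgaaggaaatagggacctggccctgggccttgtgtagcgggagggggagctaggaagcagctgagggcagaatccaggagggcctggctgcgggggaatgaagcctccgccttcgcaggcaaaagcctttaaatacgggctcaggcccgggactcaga

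Among these sequences the first UGT1A6 start site had a xenobiotic response core at -200. The second UGT1A6 start site had an antioxidant response core at -98 and an HNF1 core at -75, and the second UGT3A1 start site had an HNF1 core at -208. The windows of the first UGT3A1 start site and of UGDH held none of these letters. Of 35116 promoters of this length, 6.23% held the HNF1 core, 0.0057% the full HNF1 site, 32.2% the xenobiotic core and 10.9% the antioxidant core. A match is a description of the letters and says nothing of binding. Of the other members, UGT8 (3 start sites) and UGT2B7 (1) were matched by symbol. Xenobiotic cores lay before the first and second UGT8 start sites, and the windows of the third and of UGT2B7 held none of the letters searched.

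**Figure D1:**
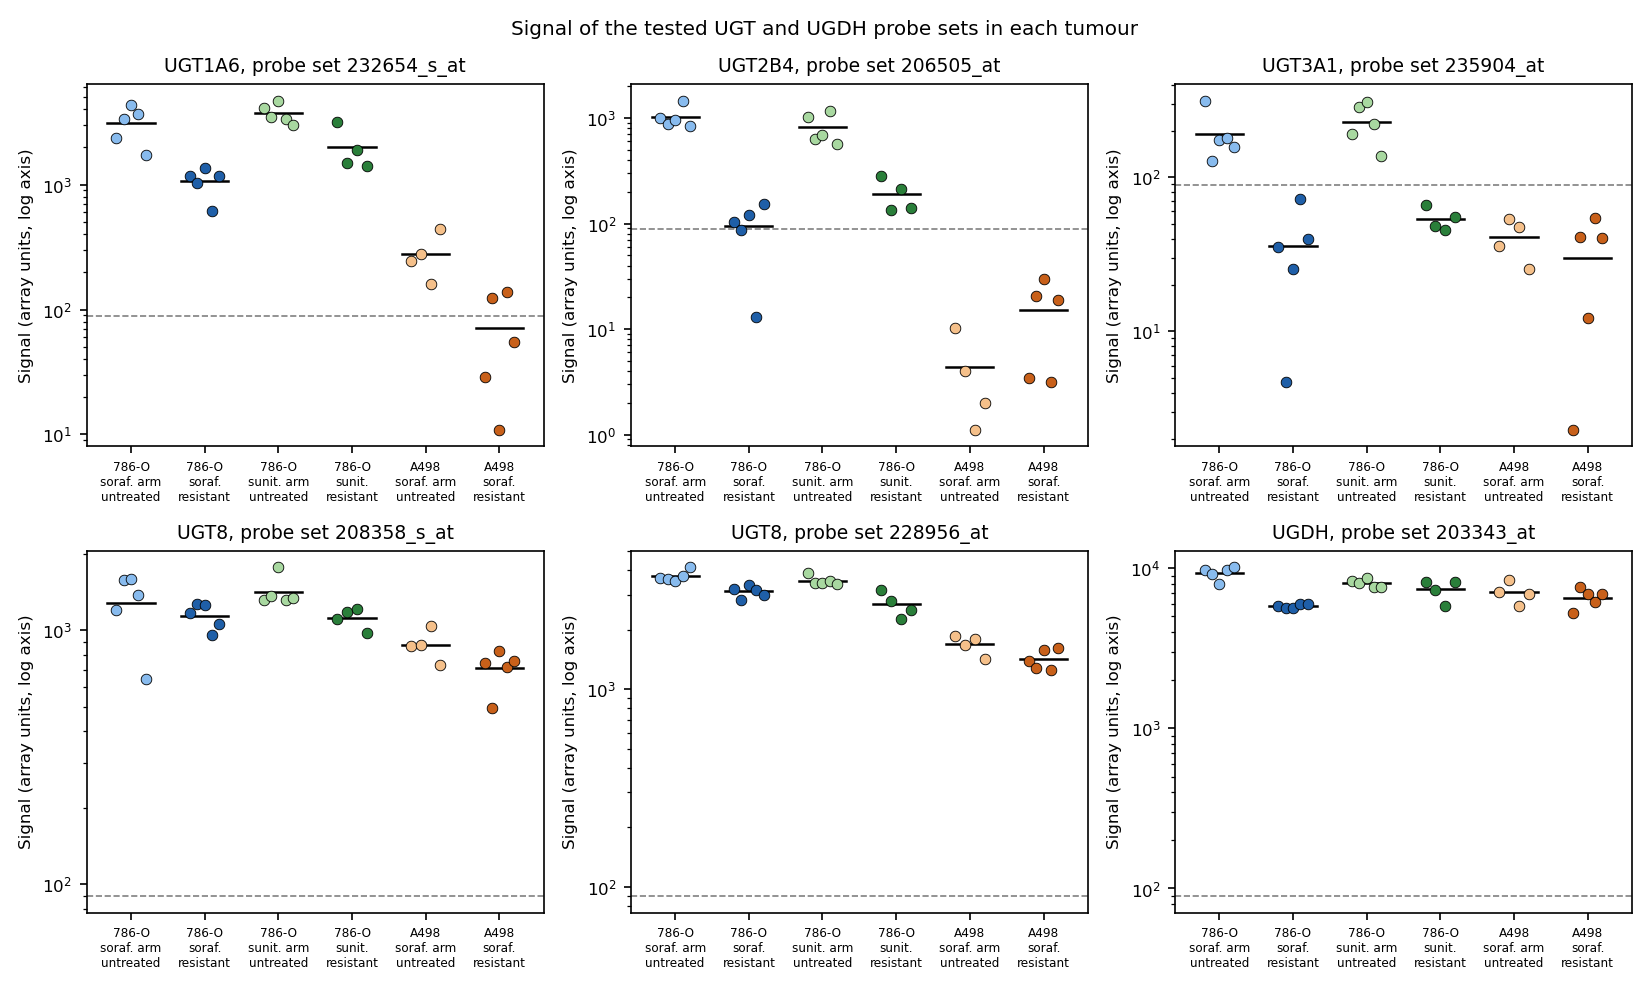
Signal of the 6 tested probe sets in each of the 28 tumours (log axis, array units), by group; points are tumours, bars are group means and the dashed line is the filter limit of 89.4. UGT1A6, UGT2B4 and UGT3A1 are lower in 786-O sorafenib-resistant than in untreated tumours without overlap, while UGDH falls within a narrow range of 5603 to 5964 in the same group.

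UGT2B4, which glucuronidates bile acids and catechol oestrogens, fell in both 786-O arms. Its signal in the 5 untreated tumours of the sorafenib arm was 998, 884, 948, 1452 and 838, and in the 5 resistant tumours 104, 87, 121, 13 and 152. The highest resistant tumour thus lay well under the lowest untreated one, and 2 of the resistant tumours were under the filter limit. The difference of -3.41 ± 0.35 is a 10.6-fold lower level (limma adjusted p = 4.37e-07), and it ran from -2.83 to -3.74 with pseudocounts of 64 and 1. Without the arrays of highest ACTB difference, 1 of which (resistant replicate 4, signal 13) was the lowest, UGT2B4 still fell, by -3.04 ± 0.29 (adjusted p = 7.66e-07).

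In the sunitinib arm the 5 untreated tumours had UGT2B4 signals of 1025, 629, 688, 1178 and 569.8, and the 4 resistant tumours 285, 133, 210.4 and 139. The groups again did not overlap, and all resistant tumours stayed above the filter limit. UGT2B4 was 4.02-fold lower here (-2.01 ± 0.37, limma adjusted p = 0.00403). The call was lost with a pseudocount of 1 (-2.10, adjusted p = 0.0623). The change under sorafenib was larger than under sunitinib by -1.40 ± 0.51 (95% confidence interval -2.45 to -0.35), but this difference between drugs was not called (adjusted p = 0.201).

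A498 tumours had almost no UGT2B4 signal. The 4 untreated tumours gave 10.2, 4.03, 1.11 and 1.98 and the 5 resistant tumours 3.43, 20.6, 30, 3.18 and 18.7, all under the filter limit. Between untreated lines the difference of A498 from 786-O of the sunitinib arm was -5.32 ± 0.37 (limma adjusted p = 7.09e-12). With A498 below the limit its size is set by the pseudocount, from -3.64 with 64 to -7.50 with 1, and no fold is given. With both A498 groups below the limit, their difference of 0.55 ± 0.37 (adjusted p = 0.456) sets 2 dim readings against each other. The sorafenib changes of the lines differed by 3.96 ± 0.51 (adjusted p = 0.000114; 3.03 to 5.20 over the alternatives), where A498 started below the level to which 786-O fell.

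UGT1A6, the enzyme of small planar phenols and serotonin, fell in the sorafenib arms of both lines. On its own probe set the 786-O untreated tumours of the sorafenib arm had signals of 2364, 3377, 4350, 3706 and 1717, and the resistant tumours 1168, 1026, 1371, 616 and 1181. The groups did not overlap, although untreated replicate 5, the tumour of highest ACTB difference, came close to the resistant range. The level was 2.81-fold lower in resistant tumours (-1.49 ± 0.37, limma adjusted p = 0.00936), and without the arrays of highest ACTB difference the change was -1.50 ± 0.40 (adjusted p = 0.0217).

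Under sunitinib the 786-O untreated tumours had UGT1A6 signals of 4098, 3489, 4680, 3333 and 2979 and the resistant tumours 3165, 1489, 1888 and 1405. Resistant replicate 1 lay within the untreated range and the other 3 below it. The difference of -0.96 ± 0.40 was not called (limma adjusted p = 0.193, 95% confidence interval -1.78 to -0.14). The 2 drugs differed by -0.53 ± 0.55 in their UGT1A6 change (adjusted p = 0.711), with an interval from -1.66 to 0.59 that leaves room for a larger change under either drug.

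A498 had far less UGT1A6 signal, and it was lower again in the resistant tumours. The untreated tumours gave 244, 281, 159.9 and 438, and the resistant tumours 28.8, 123, 10.9, 139 and 54.7, without overlap. The resistant tumours were widely spread, and 3 of the 5 were under the filter limit. UGT1A6 was 3.94-fold lower in resistant A498 tumours (-1.98 ± 0.40, limma adjusted p = 0.00485), with -1.40 and -2.38 at pseudocounts of 64 and 1. This call rests on the spread shared by all groups: fitted on the A498 arrays alone, where 216 probe sets were called, the same difference had an adjusted p of 0.0927. Untreated A498 tumours were 13.1-fold lower than untreated 786-O tumours of the sunitinib arm (-3.72 ± 0.40, adjusted p = 1.68e-08), and the sorafenib changes of the lines differed by -0.49 ± 0.55 (95% confidence interval -1.61 to 0.64, adjusted p = 0.705), or by 0.05 with a pseudocount of 64.

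The UGT1A6 probe set has to be read beside the rest of its locus. The UGT1A genes (9 in the RefSeq table used here) each have their own first exon and share all later exons and one 3-prime end, and 7 further probe sets are annotated to several UGT1A genes at once, 5 of them including UGT1A6. A signal there cannot be assigned to 1 enzyme, and as readings of the same locus the 7 are not independent of each other. Their tests come from a second fit, added after the annotation was seen, over all 33214 probe sets past the filter with any annotation.

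**Figure D2:**
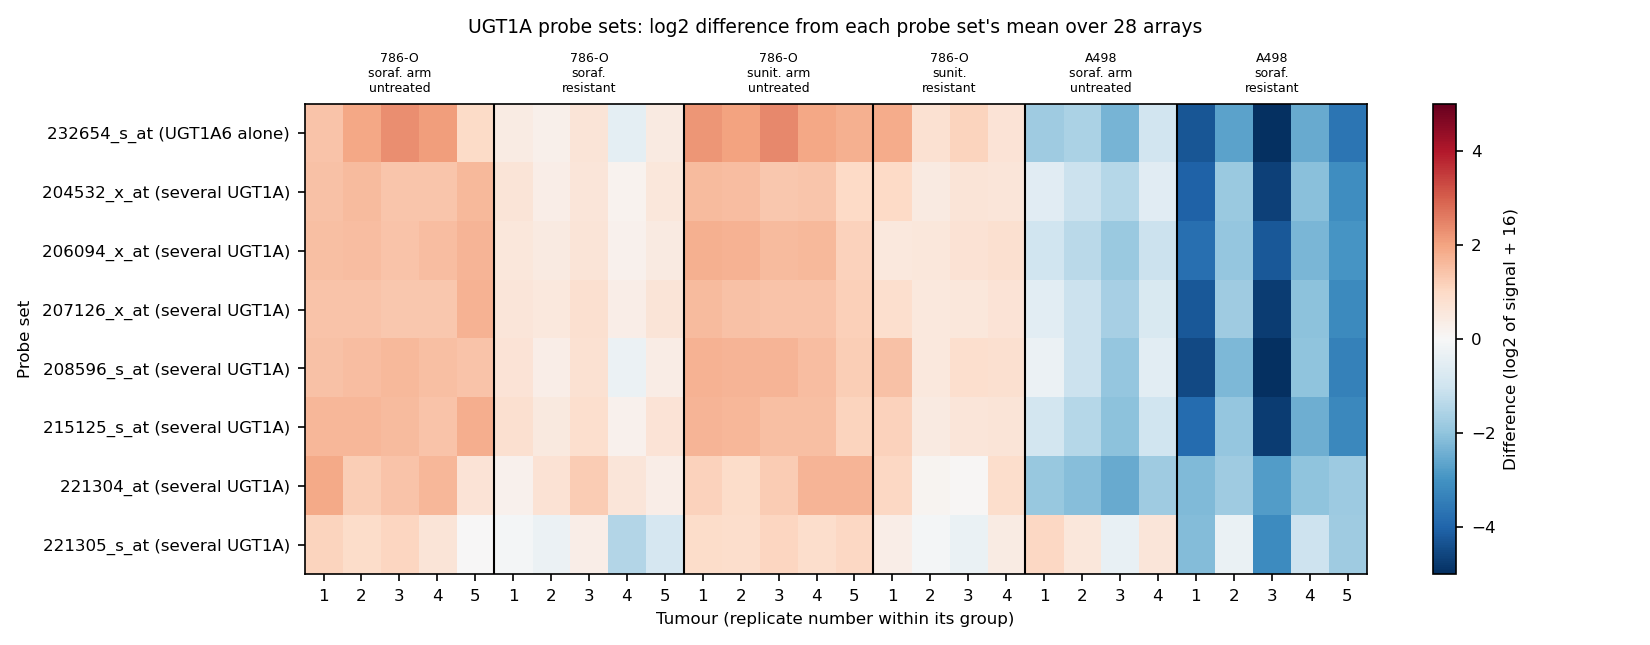
Difference of each of 8 UGT1A probe sets from its own mean over the 28 arrays (colour, log2(signal + 16)), by tumour; the top row is the UGT1A6 probe set and the other 7 are annotated to several UGT1A genes. The A498 resistant tumours 1 and 3 are the lowest of their group in the UGT1A6 row and in the other 7 rows.

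All 7 shared UGT1A probe sets had differences below 0 in each of the 3 arms, although that of 221304_at in A498 (-0.05 ± 0.26) set readings under the filter limit against each other. In 786-O under sorafenib they ranged from -1.24 (221305_s_at) to -0.75 (221304_at), and 2 of 7 were called (206094_x_at, limma adjusted p = 0.0126, and 221305_s_at, adjusted p = 0.0363), where 5.84% of all probe sets fell. Without the arrays of highest ACTB difference both of these calls were lost (adjusted p = 0.0759 and 0.0828) and 221304_at was called (-0.92, adjusted p = 0.0425). The call of 221305_s_at was also lost on leaving out any of 6 single tumours of this arm, untreated replicates 1 to 4 and resistant replicates 4 and 5 (highest adjusted p = 0.123). On the probe set 208596_s_at, which names all 9 genes, UGT1A6 among them, untreated tumours gave 14348, 14804, 15724, 14784 and 13641 and resistant tumours 8376, 6465, 8620, 4171 and 6676, a 2.20-fold difference that was not called (adjusted p = 0.0709) although the groups did not overlap. It was called when replicate 3 or 4 of the A498 resistant tumours was left out (lowest adjusted p = 0.0348). Fitted on the arrays of this arm alone, where 3.87% of all probe sets fell, 6 of the 7 were called and 208596_s_at had an adjusted p of 0.00482. The spread of the shared fit includes the widely scattered A498 resistant tumours.

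In the A498 arm 6 of the 7 shared probe sets fell, where 1.94% of all probe sets did. Over the 9 A498 tumours these 6 had Pearson r from 0.98 to 1.0 with each other, so they are not 6 independent falls. The tumours gave 4135, 2450, 1338 and 3571 on 208596_s_at when untreated and 208, 1061, 147, 1270 and 482 when resistant. The ranges did not overlap. On the log2 scale the resistant tumours differed among themselves more than the untreated ones (SD 1.33, n = 5, against 0.72, n = 4). The level was 5.55-fold lower (-2.47 ± 0.43, limma adjusted p = 0.0015). Fitted on the A498 arrays alone, where 0.316% of all probe sets fell, the same 6 had adjusted p-values from 0.0846 to 0.116, and by limma 0 of 7 were called and 6 had an unadjusted p under 0.05. The seventh, 221304_at, was under the filter limit in all 9 A498 tumours (21.3 to 59.3).

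Under sunitinib 0 of the 7 shared probe sets were called in 786-O by limma, where 2.0% of all probe sets fell, and 4 had an unadjusted p under 0.05. Their differences ran from -0.91 (206094_x_at, limma adjusted p = 0.0913) to -0.66 (208596_s_at, adjusted p = 0.456), and resistant replicate 1, with 14176 on 208596_s_at, was again the tumour nearest to the untreated ones (11900 to 17145). With the arrays of this arm alone, where 0.632% of all probe sets fell, 3 of the 7 were called, 206094_x_at (adjusted p = 0.0308), 207126_x_at (0.0288) and 221305_s_at (0.0455). Between untreated lines 6 of the 7 were lower in A498, where 27.3% of all probe sets were. The exception was 221305_s_at (-0.49 ± 0.40, limma adjusted p = 0.327), one of the pair that does not list UGT1A6. Its untreated A498 signals of 1531, 1081, 558 and 1124 overlapped those of 786-O (1338 to 1555). Of the 6, 221304_at passed the filter through 786-O tumours alone, so a lower A498 level was bound to show for it.

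**Figure D3:**
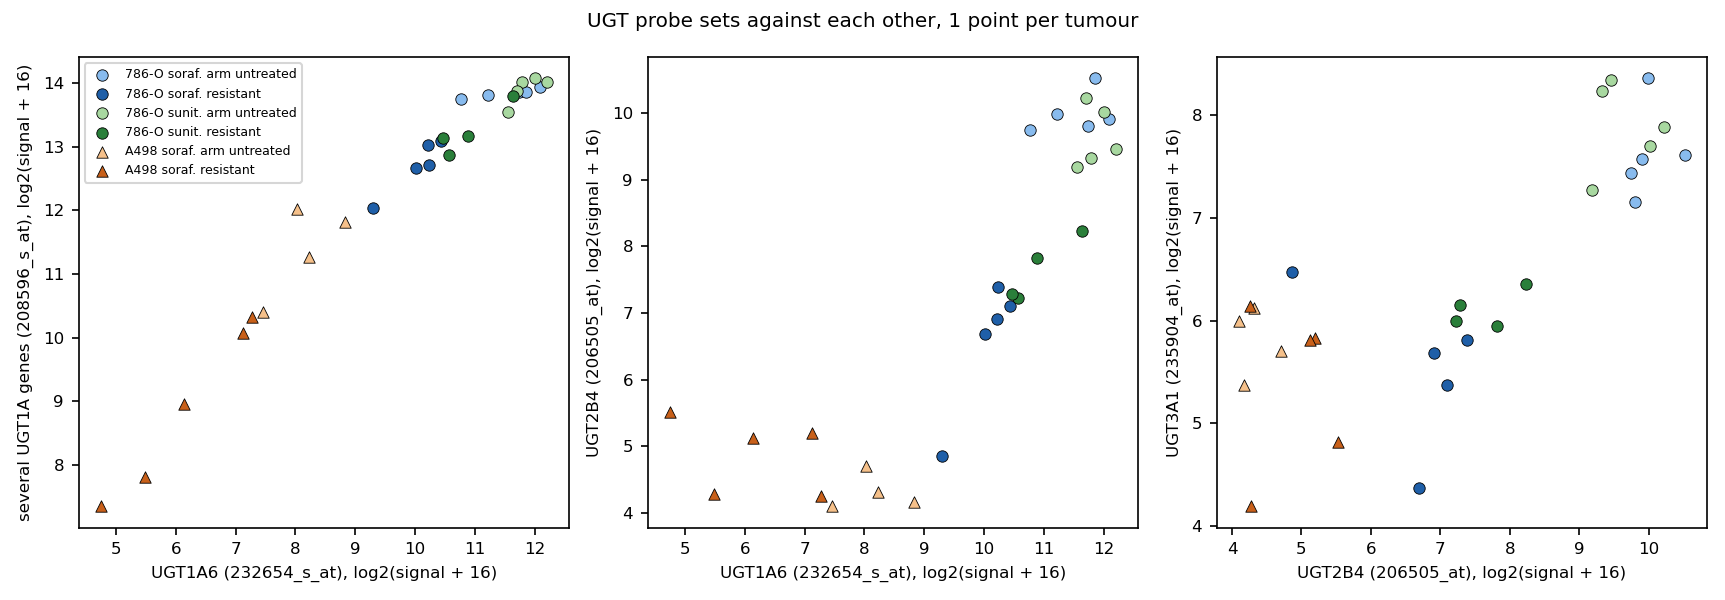
UGT probe sets plotted against each other on the log2(signal + 16) scale, 1 point per tumour (circles 786-O, triangles A498). UGT1A6 follows the shared UGT1A probe set 208596_s_at in both lines (r 0.94 over 19 and 0.98 over 9 tumours), whereas UGT2B4 follows UGT1A6 in the 786-O tumours (r 0.89) and not in A498 (r -0.59), where UGT2B4 is below the filter limit.

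Across tumours UGT1A6 and the shared probe set 208596_s_at had a Pearson r of 0.94 over the 19 786-O tumours and 0.98 over the 9 A498 tumours. The points share arrays and treatment groups, and part of the locus, so these values are descriptions. UGT2B4 and UGT1A6 had r = 0.89 in 786-O, and UGT2B4 and UGT3A1 r = 0.79. In A498 the same pairs gave r = -0.59 and r = -0.16, with UGT2B4 below the limit throughout.

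UGT3A1, a transferase that uses N-acetylglucosamine instead of glucuronic acid, was dim and lay above the filter limit in the untreated 786-O tumours alone. On 235904_at the untreated tumours of the sorafenib arm gave 313, 127, 175, 179.7 and 158 and the resistant tumours 35.3, 4.73, 25.4, 72.5 and 40. The untreated tumours of the sunitinib arm gave 192, 286, 308, 221 and 138 and the resistant ones 66.4, 48.1, 45.8 and 54.9. In both arms each resistant tumour was under the filter limit and each untreated one above it.

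UGT3A1 was 4.25-fold lower with sorafenib (-2.09 ± 0.34, limma adjusted p = 0.000148) and 3.41-fold lower with sunitinib (-1.77 ± 0.36, adjusted p = 0.00816), where the dim resistant levels make the size depend on the pseudocount (-1.35 to -2.71 with sorafenib, -1.28 to -2.03 with sunitinib). The sunitinib call was lost with a pseudocount of 1 (-2.03, adjusted p = 0.0801). The difference between the drugs was -0.32 ± 0.49 (adjusted p = 0.827, 95% confidence interval -1.34 to 0.70). A498 gave 36, 53.7, 47.9 and 25.4 when untreated and 2.3, 40.9, 12.2, 54.7 and 40.2 when resistant, all under the limit, and the difference of -0.44 ± 0.36 was not called (adjusted p = 0.560). Untreated A498 tumours were below untreated 786-O by -2.09 ± 0.36 (adjusted p = 2.41e-05; -1.46 to -2.46 over the alternatives). The change with sorafenib differed between lines by 1.65 ± 0.49, which missed the threshold (adjusted p = 0.0649).

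The other UGT3A1 probe sets stayed below the filter and have no test in the main fit. On 236597_at the group means were 58.1 ± 20.2 (SD, n = 5) untreated and 27.4 ± 10.7 (n = 5) resistant under sorafenib, and 83.5 ± 27.7 (n = 5) and 20.3 ± 19.2 (n = 4) under sunitinib. Its direction in 786-O was that of 235904_at, and with no filter the sunitinib difference was called (-1.54 ± 0.36, limma adjusted p = 0.0295) and the sorafenib one was not (-0.77 ± 0.34, adjusted p = 0.207). On 237572_at the group means lay between 25.2 and 41.6, with overlap between all groups, so that the 3 UGT3A1 probe sets differed among themselves.

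UGT8, the ceramide galactosyltransferase that makes the galactolipids of myelin and of renal tubule membranes, differed little between groups of a line. On 228956_at the untreated tumours of the sorafenib arm gave 3665, 3602, 3520, 3742 and 4142 and the resistant ones 3222, 2848, 3367, 3188 and 3020. The groups did not overlap, yet the difference was 1.19-fold (-0.25 ± 0.10) and not called (limma adjusted p = 0.0938). Under sunitinib the untreated tumours gave 3867, 3442, 3451, 3543 and 3411 and the resistant ones 3181, 2814, 2266 and 2530. UGT8 was 1.32-fold lower there (-0.40 ± 0.10, limma adjusted p = 0.0309). This call was lost in 4 of 15 alternative fits, among them centring on the median (-0.34, adjusted p = 0.102) and no filter (adjusted p = 0.0642). It was also lost on leaving out untreated replicate 1, 2 or 4 or resistant replicate 2, 3 or 4, with -0.32 and an adjusted p of 0.14 as the weakest values.

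The second UGT8 probe set, 208358_s_at, was not called in any arm. Its differences were -0.10 ± 0.18, -0.34 ± 0.19 and -0.32 ± 0.19 for 786-O sorafenib, 786-O sunitinib and A498 (limma adjusted p = 0.783, 0.382 and 0.397). The lowest 786-O value, 642, was that of untreated replicate 5 of the sorafenib arm, the tumour of highest ACTB difference, where 228956_at gave the highest value of its group. In A498 228956_at gave 1870, 1682, 1806 and 1431 untreated and 1393, 1287, 1585, 1248 and 1627 resistant (-0.25 ± 0.10, adjusted p = 0.189). Both UGT8 probe sets were lower in untreated A498 than in untreated 786-O, by 2.09-fold (228956_at, adjusted p = 3.84e-09) and 1.61-fold (208358_s_at, adjusted p = 0.00407).

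UGDH, which oxidises UDP-glucose to UDP-glucuronic acid, fell with sorafenib in 786-O. Its signal was 9710, 9140, 7983, 9720 and 10106 in the untreated and 5810, 5603, 5645, 5964 and 5937 in the resistant tumours. The resistant values lay within a few percent of each other and far below the untreated ones. UGDH was 1.60-fold lower (-0.68 ± 0.11, limma adjusted p = 0.000148), and -0.66 ± 0.13 without the arrays of highest ACTB difference (adjusted p = 0.00166).

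With sunitinib UGDH gave 8338, 8039, 8665, 7676 and 7581 untreated and 8214, 7352, 5775 and 8252 resistant. Resistant replicate 3 lay apart at 5775 and 2 of the others within the untreated range. The difference of -0.14 ± 0.12 was not called (limma adjusted p = 0.598, 95% confidence interval -0.38 to 0.11). The drugs differed by -0.55 ± 0.16 (95% confidence interval -0.88 to -0.21), which was not called (adjusted p = 0.109); without sunitinib-resistant replicate 3 it was -0.66 and called (adjusted p = 0.0464).

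In A498 UGDH gave 7063, 8469, 5807 and 6889 untreated and 5242, 7578, 6865, 6111 and 6856 resistant, with overlap (-0.11 ± 0.12, limma adjusted p = 0.677). The sorafenib change differed between lines by 0.57 ± 0.16 (adjusted p = 0.049), a call at the threshold. It was lost in 7 alternative fits, among them centring on the median (0.39, adjusted p = 0.219), and on leaving out any of 22 single tumours (adjusted p from 0.0214 to 0.101 over all 28). Untreated lines did not differ in UGDH beyond the threshold (-0.20 ± 0.12, adjusted p = 0.153), but against the untreated 786-O tumours of the sorafenib arm A498 was lower by -0.41 (adjusted p = 0.00444).

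**Figure D4:**
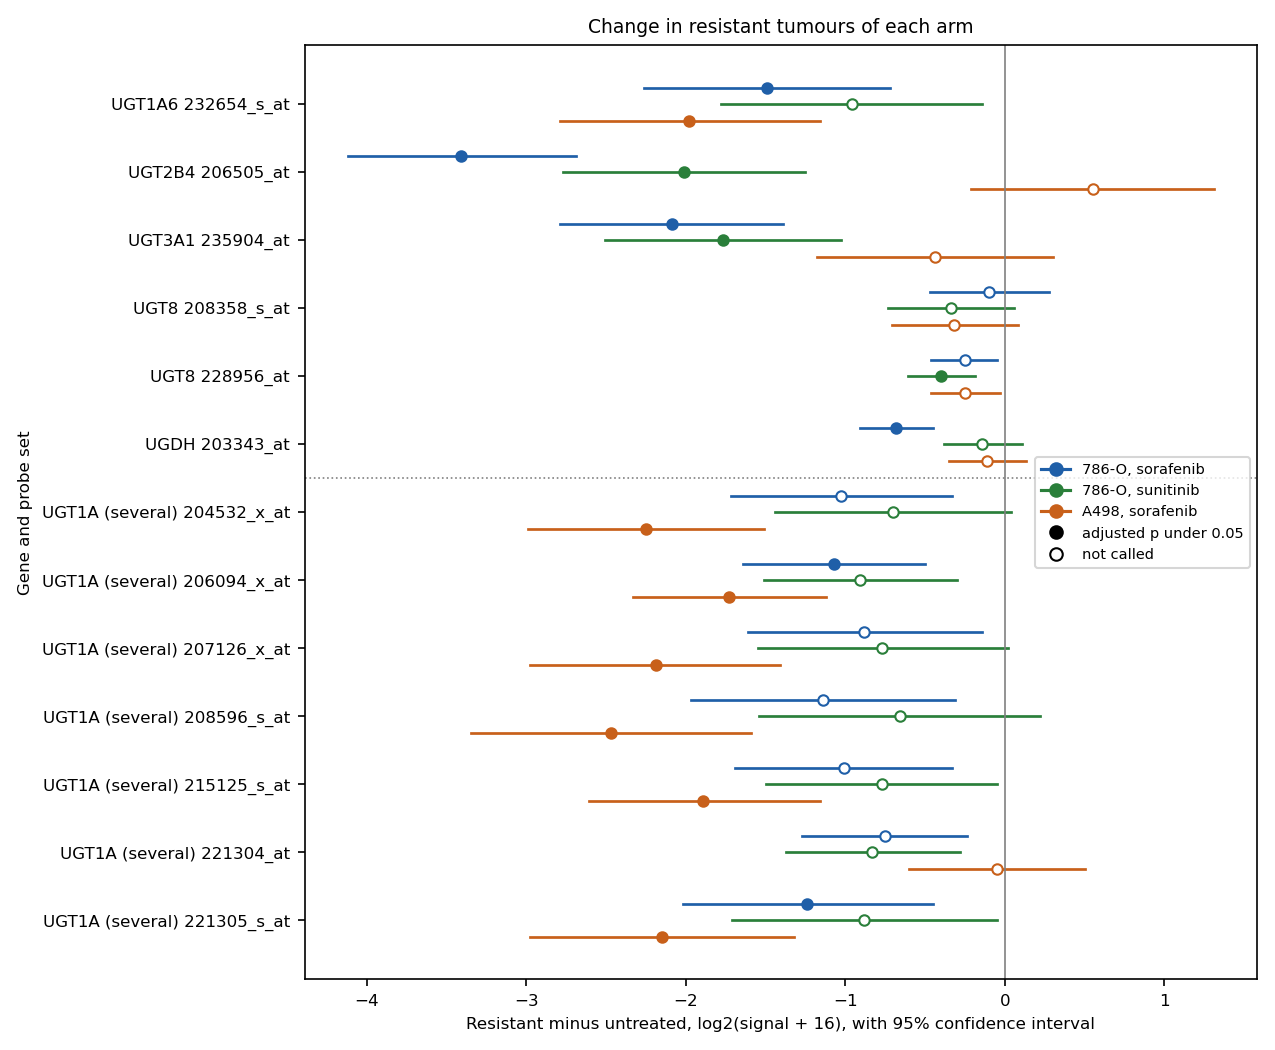
Resistant minus untreated on the log2(signal + 16) scale with 95% confidence intervals, for the 6 tested probe sets (above the dotted line) and the 7 shared UGT1A probe sets (below it), in the 3 arms; filled points have an adjusted p under 0.05. UGT2B4 falls by 3.41 and 2.01 in 786-O and stands at 0.55 in A498, and the UGT1A6 intervals, which are not adjusted for the number of tests, overlap each other in the 3 arms.

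By arm, 4 of the 6 tested member probe sets fell in 786-O with sorafenib (UGT1A6, UGT2B4, UGT3A1 and UGDH), where 6.74% of the 26924 tested fell. The members were chosen with earlier results of these data known, so the counts here describe them. Set beside the shares of all probe sets, they are no test of the family. With sunitinib 3 of 6 fell (UGT2B4, UGT3A1 and UGT8 228956_at), where 2.06% did, and in A498 1 of 6 (UGT1A6), where 2.28% did. UGT3A1 235904_at passed the filter through the untreated 786-O tumours alone, so a lower level elsewhere was bound to show, and its 2 dimmer probe sets are not among the 6; with no filter its falls had adjusted p-values of 0.000289 and 0.0147. The number that rose was 0 in each arm, by limma at the adjusted threshold and also at an unadjusted p under 0.05, beside 5.24%, 1.33% and 2.13% of all tested. Without any test, 5, 4 and 1 of the 6 lay lower in resistant tumours with no overlap, as did 5.78%, 4.21% and 4.22% of all tested. In untreated A498 against untreated 786-O 5 of 6 were lower, in a comparison where 28.4% of all tested probe sets were lower and 24.4% higher, and the same 5 lay lower with no overlap, as did 22.4% of all tested. Of these, UGT2B4 and UGT3A1 passed the filter through 786-O tumours alone, so a lower A498 level was bound to show for them. The sorafenib changes of the lines differed for 2 of 6, as did those of 3.28% of all. One was UGT2B4, which lay below the filter limit in both A498 groups, so that no fall could show there. The other was UGDH, a call at the threshold (limma adjusted p = 0.049) that was lost in 7 alternative fits. Changes with the 2 drugs in 786-O differed for 0 of 6 (0.747% of all), with 2 at an unadjusted p under 0.05. The untreated 786-O groups of both arms differed for 0 of 6 (0.383%), with 0 at an unadjusted p under 0.05. The contrasts between drugs and between lines use the same tumours as the arms and are not independent of them. They also set the 786-O sorafenib arm, whose sample titles all begin with one number, against tumours whose titles all begin with another; what this number marks is not stated, and it cannot be told apart from drug or line there.

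The order of group means differed from member to member below the untreated 786-O tumours, which came first on each tested probe set. For UGT1A6 the untreated 786-O groups (means 3716 and 3103) were followed by sunitinib-resistant (1987), sorafenib-resistant (1072), A498 untreated (281) and A498 resistant (71.3) tumours; the first 3 overlapped their neighbours among each other, and from there on each group lay below the one before it with no overlap. For UGT2B4 the untreated groups of the sorafenib (1024) and sunitinib arms (818) overlapped each other and stood above the rest, and the resistant 786-O groups (192 and 95.3) overlapped. The A498 groups were lowest, resistant (15.2) before untreated (4.34), both under the filter limit and overlapping. For UGT3A1 235904_at the 4 groups other than untreated 786-O lay under the limit with overlapping neighbours (means 30.1 to 53.8), so their order is not resolved. For UGDH the sorafenib-resistant 786-O tumours were lowest (5792 ± 165, SD, n = 5), with both A498 means (7057 and 6531) between them and the other 786-O groups and each group overlapping the next.

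The genes most like each member over the 19 786-O tumours, among 12905 candidates and by Pearson r, differed from member to member. UGT1A6 was nearest to KCNJ16, a renal potassium channel (r = 0.96), ACSM3, an acyl-CoA synthetase (0.94), and SLC40A1, the iron exporter ferroportin (0.92). Over the 9 A498 tumours the same pairs gave 0.63, 0.72 and 0.30. UGT2B4 was nearest to the steroid reductase AKR1C3, the phosphate and urate transporter SLC17A3 and the reductase AKR1C2 (0.96 each), with 0.39, -0.66 and -0.10 in A498. UGT3A1 was nearest to MBNL3 (0.92), GATM, a creatine synthesis enzyme of the proximal tubule (0.90), and MAP3K1 (0.90), UGT8 228956_at to SPATA13 (0.90), TOP2B (0.88) and CARNMT1 (0.88), and UGDH to TNFAIP6 (0.92), the sulfotransferase CHST9 (0.92) and NQO1, a quinone reductase (0.91). The 786-O points share treatment groups, so any gene that fell with treatment scores high.

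**Figure D5:**
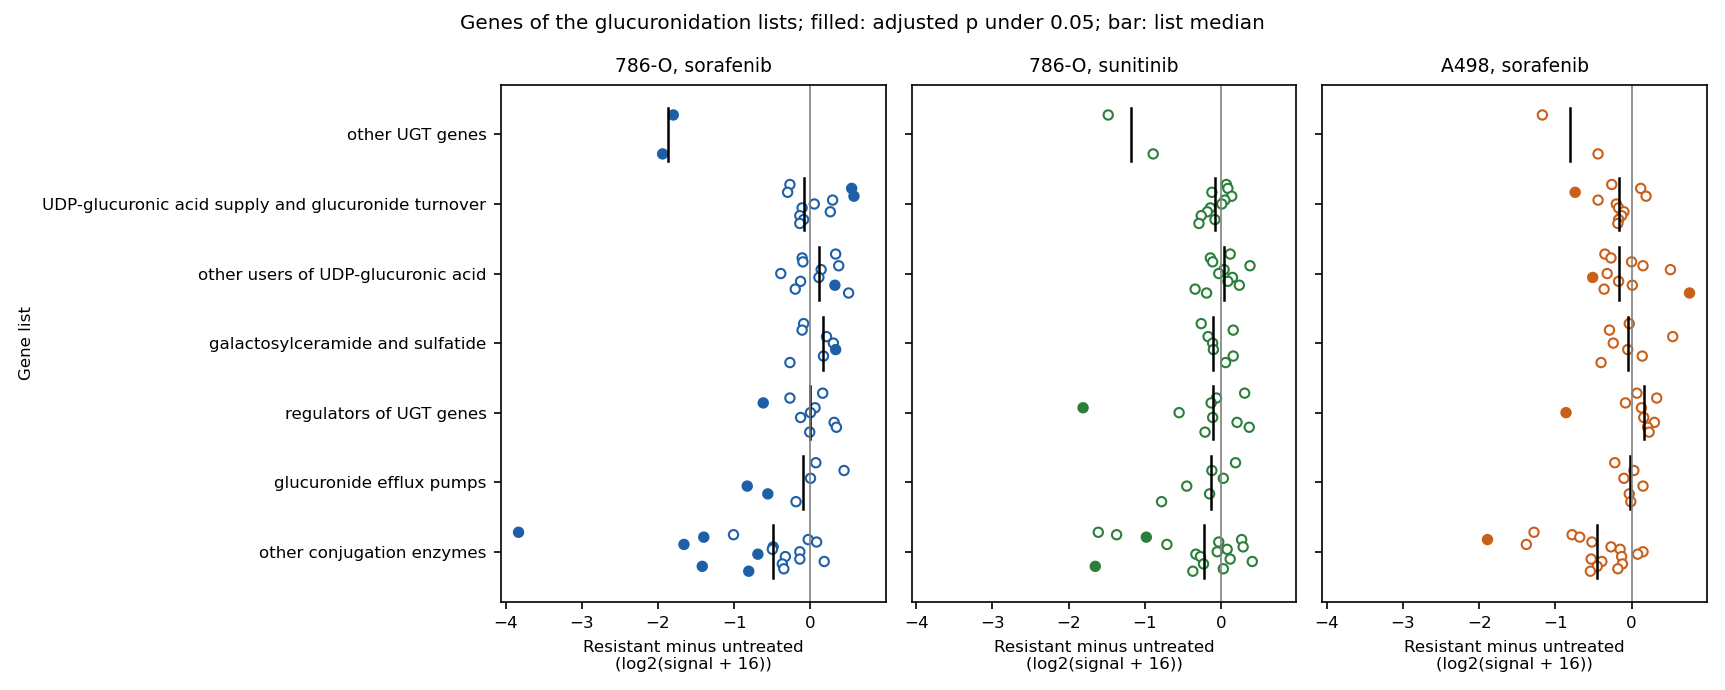
Resistant minus untreated (log2(signal + 16)) of each tested gene of 7 lists around glucuronidation, in the 3 arms; filled points have an adjusted p under 0.05 and the bar is the list's median. The enzymes of other conjugation reactions reach from 0.18 down to -3.83 in 786-O with sorafenib, while the genes that supply or use UDP-glucuronic acid stay within 1 of zero in all arms.

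The rest of the family was measured thinly. Of 17 other UGT genes 5 had a probe set of their own and 2 passed the filter, UGT2A3 and UGT2B28. Both probe sets carry the suffix that marks probes open to cross-hybridisation with related transcripts, so their values are uncertain. Both fell in 786-O with sorafenib, UGT2B28 from 265 ± 17.9 (SD, n = 5) to 64.9 ± 35.0 (n = 5, limma adjusted p = 7.6e-05) and UGT2A3 from 750.3 ± 161 to 269 ± 275 (adjusted p = 0.0193). Neither was called in the other arms, where 2 of 2 with sunitinib and 1 of 2 in A498 had an unadjusted limma p under 0.05. Their sunitinib differences were -0.89 ± 0.32 and -1.48 ± 0.53, and the difference between drugs was not called (adjusted p = 0.271 and 0.893). In untreated A498 UGT2B28 was higher than in 786-O (1.18 ± 0.32, adjusted p = 0.00274) and UGT2A3 lower (-2.44 ± 0.53, adjusted p = 0.000387).

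In the following lists the brightest probe set on average stands for each gene. Of 13808 such genes 8.29% fell and 5.34% rose in 786-O with sorafenib, 2.31% and 1.69% with sunitinib, and 2.84% and 2.38% in A498. Of 11 tested genes of UDP-glucuronic acid supply and glucuronide turnover, 2 rose in 786-O with sorafenib: GUSB, the lysosomal beta-glucuronidase that cleaves glucuronides, from 6138 ± 237 to 9120 ± 235 (SD, n = 5 each, limma adjusted p = 8.53e-06), and ENTPD4, a Golgi nucleotidase (0.54 ± 0.13, adjusted p = 0.0081). The list's median was -0.09, beside -0.05 over all genes. UGP2, which makes the UDP-glucose that UGDH oxidises, had a difference of -0.09. With sunitinib 0 of 11 were called by limma (2 at an unadjusted p under 0.05), and in A498 ENTPD5, a nucleotidase of the endoplasmic reticulum, fell by 0.74 on the log2 scale (adjusted p = 0.0277).

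Other enzymes that use UDP-glucuronic acid, those of hyaluronan, heparan and chondroitin sulfate, gave few calls among 11 tested. EXT2, a heparan sulfate polymerase, rose in 786-O with sorafenib (0.32 ± 0.09, limma adjusted p = 0.0202). In A498 HAS3, a hyaluronan synthase, rose (0.76 ± 0.21, adjusted p = 0.0388) and DSE, which epimerises dermatan sulfate, fell (-0.51 ± 0.14, adjusted p = 0.0338). Around UGT8, 1 of 7 tested genes of galactosylceramide and sulfatide was called in any arm, GLA, the lysosomal alpha-galactosidase, which rose with sorafenib in 786-O (0.33 ± 0.09, adjusted p = 0.0111).

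Among efflux pumps, which carry glucuronides out of the cell, ABCC4 (from 2451 ± 301 to 1400 ± 339, SD, n = 5 each, limma adjusted p = 0.000317) and ABCC5 (-0.56 ± 0.12, adjusted p = 0.00304) fell in 786-O with sorafenib, 2 of 6 tested. With sunitinib and in A498 0 of 6 were called by limma, and 2 and 0 had an unadjusted p under 0.05. Untreated A498 tumours had more ABCC2 than untreated 786-O tumours (1396 ± 225, n = 4, against 8.41 ± 8.71, n = 5), more ABCC3, ABCG2 and ABCC1, and lower UGT1A6 and UGT2B4. Here 4 of 6 pumps were higher, in a comparison where 26.8% of genes were higher and 30.1% lower. The 786-O mean of ABCC2 was under the filter limit of 89.4. The pumps compared between lines were added after their values were seen, so this count is a description.

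Of 9 tested regulators of UGT genes 1 fell in each arm, each time a different one, and 0 rose. Of all genes 8.29%, 2.31% and 2.84% fell in 786-O with sorafenib, with sunitinib and in A498. A count of 1 is thus no result about the list. FOXA1 fell in 786-O with sorafenib (95.6 ± 17.3 to 58.6 ± 21.2, SD, n = 5 each, limma adjusted p = 0.0299), a dim gene near the filter limit. FOXA2, a forkhead factor of endodermal tissues, fell with sunitinib (from 175 ± 38.9, n = 5, to 46.6 ± 37.5, n = 4, adjusted p = 0.0196). HNF4G, a nuclear receptor of kidney and gut, fell in A498 (799.8 ± 336, n = 4, to 423 ± 128, n = 5, adjusted p = 0.0468). AHR, ARNT and NFE2L2, whose response cores were searched above, had differences from -0.27 (ARNT, 786-O with sorafenib) to 0.33 (ARNT, A498), and 0 were called.

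Enzymes of other conjugation reactions gave the most calls of these lists. In 786-O with sorafenib 7 of 17 tested fell and 0 rose, with a median of -0.49 beside -0.05 over all genes. The largest falls were those of ACSM2A, a mitochondrial medium-chain acyl-CoA synthetase of glycine conjugation (-3.83 ± 0.46, limma adjusted p = 3.73e-06), GSTA1, a glutathione transferase (-1.66 ± 0.44, adjusted p = 0.0128), and SULT1C2, a sulfotransferase (-1.42 ± 0.35, adjusted p = 0.00781). With sunitinib SULT1C2 (-1.65 ± 0.37, adjusted p = 0.0132) and ACSM3 (-0.98 ± 0.21, adjusted p = 0.00997) fell. In A498 the 1 call was GLYAT, the glycine acyltransferase, from 649 ± 160.1 (SD, n = 4) to 169 ± 62.3 (n = 5, adjusted p = 0.000699).

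Summed signals of genes used as markers of other cell types were compared over the same tumours. The probe sets are for human genes and the hosts were mice, so these sums are not amounts of host cells. Whether they come from the human tumour cells or from mouse RNA was not tested. In 786-O with sorafenib the fibroblast and hepatocyte sums given above did not overlap between groups, the first lower and the second higher in resistant tumours. The skeletal muscle sum (6 genes on the array, 4 past the filter) was 460.5 to 1461 untreated and 315 to 556 resistant. The myeloid sum (7 on the array, 4 past the filter) was 413 to 748 and 313 to 523. With sunitinib the fibroblast sum was 4148 to 8628 untreated and 3355 to 7474 resistant, the hepatocyte sum 5525 to 11470 and 7680 to 10680, and the muscle sum 285 to 764 and 708 to 1317. In A498 the fibroblast sum, most of it COL1A1, was 7242 to 16626 and 10813 to 24872, the hepatocyte sum 14760 to 22019 and 12030 to 18788, and the skin and adipose sum (7 genes, 2 past the filter) 4622 to 5018 and 5207 to 5746. Of the hepatocyte list SERPINA1 had group means from 4888 to 17819, F2 from 222 to 529.6 and CYP3A4 from 129 to 173, HP reached 373 in A498 resistant tumours, APOA1 reached 374 in untreated A498 tumours without passing the filter, and ALB, TTR and APOB were at most 76.8, 66.2 and 45.8. The endothelial (8 genes, 1 past the filter) and intestinal (5 genes, 2 past the filter) sums overlapped between resistant and untreated tumours in all 3 arms, as did the myeloid sum. The part of these cell types in the members' changes was not tested.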

How the data were processed

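RNA of 28 tumours was measured on Affymetrix HG-U133 Plus 2.0 arrays. The values are intensity values: linear probe set signals deposited by the authors, with 2% trimmed means of 500.06 to 500.07 on every array and array medians of 79.7 to 99.4. RMA and MAS5 are both named, with no role, in the submitters' processing notes, and the common trimmed mean is what MAS5 scaling sets. Detection calls were not used here. Arrays of 1 group correlated with r from 0.949 to 0.971, and the number of tumours limits the precision. Groups come from the labels; replicate numbers follow the order of deposition and pair nothing. Titles of the 786-O sorafenib arm begin with a different number from the rest, with no stated meaning.

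Of 54675 probe sets, 41091 had 1 gene symbol, 1801 several and 11721 none, and 62 were controls; 41037 were matched to current symbols by Entrez ID. Probe sets above a signal of 89.4 on at least 4 arrays were tested on log2(signal + 16) with limma 3.58.1 in R 4.3.3, 1 coefficient per group over 28 arrays, no covariate, and Benjamini-Hochberg adjustment over 26924; the model was tested on simulated data. The line contrast used untreated 786-O tumours of the sunitinib arm. All member probe sets were named, from each list the counts and up to 3 largest called changes per arm, and for each member the 3 genes of highest r in 786-O. UGP2, UGT2A3, UGT2B28, AHR, ARNT and NFE2L2 and the pumps compared between lines were added after their values were seen. Promoters are RefSeq's on GRCh38.p14. Figures used matplotlib 3.10.9. The members and lists were chosen with earlier results of these data known. Alternatives were other pseudocounts (1, 64), filters, probe set rules, scalings, weights, variance models, ACTB terms, subsets of arrays, references and leaving out each array.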

Additional observations from a re-analysis of the deposited data

Results flagged for a closer look

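In UGT2B4, replicate 4 of the 786-O sorafenib-resistant tumours, with a signal of 13.0, lay below the other 4, its gap to the next tumour taking 0.72 of the group's range on the log2 scale. In the dim UGT3A1 probe set 236597_at, replicate 5 of the same group (8.95) was lowest with a gap of 0.77 of the range. In UGT8 208358_s_at, replicate 2 of the A498 resistant tumours (492) was lowest (0.72 of the range), and replicate 3 of the untreated 786-O tumours of the sunitinib arm (1771) was highest (0.87). In the shared UGT1A probe set 207126_x_at, replicate 5 of the untreated 786-O tumours of the sorafenib arm (15219) was highest (0.75). These 5 come from 90 groups of values examined, and chance alone flags about 1 group in 20.

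The change with sorafenib differed between A498 and 786-O for UGT2B4 (3.96, limma adjusted p = 0.000114) and UGDH (0.57, adjusted p = 0.049). UGT2B4 was below the filter limit in both A498 groups.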

How the results depend on the processing

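No paired analysis was possible because the replicate numbers were given in order of deposition and the labels pair no tumours. The count of member probe sets called was 4 in 786-O with sorafenib in the main fit and stayed within 1.5 times of it under all alternatives. With sunitinib it was 3, and 1 with a pseudocount of 1 or with the averaged probe sets of each gene, where UGT3A1 drops below the filter. In A498 it was 1, and 0 when only the arrays of the comparison were fitted. Between untreated lines it was 5, and 3 with the averaged probe sets of each gene. For the difference between lines it was 2, and 1 with a pseudocount of 1, no filter, centring on the median, only the arrays of the comparison or the fit over all probe sets; leaving out 1 array gave 1 to 3. For the difference between drugs it was 0, and leaving out 1 array gave 0 to 1.

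Signs turned for differences that were not called. For the difference between untreated 786-O groups, UGT1A6 was 0.05 and UGT8 208358_s_at 0.12 with the ACTB covariate, 208358_s_at was 0.02 without the 2 arrays of highest ACTB difference and -0.31 to 0.02 with 1 array left out, and UGT8 228956_at was -0.01 after centring and -0.07 as the mean of both probe sets. For the difference between lines, UGT8 228956_at was -0.18 after centring, -0.02 without the 2 arrays of highest ACTB difference, -0.11 as the mean of both probe sets and -0.07 to 0.06 with 1 array left out, 208358_s_at was -0.31 to 0.01 with 1 array left out, and UGT1A6 was 0.05 with a pseudocount of 64. The shared UGT1A probe set 221304_at in A498 was -0.20 to 0.11 with 1 array left out. The causes were not tested. Over all arrays 3225, 913 and 1188 probe sets were called in 786-O sorafenib, 786-O sunitinib and A498; with only the arrays of each comparison 2251, 313 and 216. Dim signals limit UGT2B4 and UGT3A1 in A498 and UGT3A1 in resistant tumours.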
